A study of Ovis aries with 7 samples.

Results

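The transcripts of 7 genes of cholesterol synthesis, HMGCS1, FDFT1, SQLE, LSS, MSMO1, DHCR7 and SREBF2, were followed in striatal nuclei of sheep. They were picked by gene symbol from the 26479 features of the count matrices, and each symbol matched 1 feature. The nuclei were taken at 5 years of age from 6 OVT73 and 6 control sheep (12 in all), and 3 OVT73 and 4 control droplet libraries were sequenced. OVT73 sheep carry a full-length human huntingtin (HTT) cDNA that encodes an expanded polyglutamine tract and is driven by a stretch of upstream human HTT sequence, on top of their own HTT genes. The transgene is expressed at a moderate level in this model, and the controls carry no transgene. A single sheep went into control library 1 and another into control library 2, while every other library mixed nuclei from 2 sheep. Animals within a library were left together, which makes the library the replicate, and p-values measure the spread between libraries.

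Cholesterol does not pass from blood to brain in useful amounts, and the brain makes its own. Synthesis runs from acetyl-CoA through mevalonate to squalene and then through a series of sterols, and the transcription factor encoded by SREBF2 raises the transcription of nearly all of its enzymes when membrane sterol is low. Oligodendrocytes use cholesterol for myelin, astrocytes release it to neurons on lipoprotein particles, and lowered brain cholesterol synthesis has been described in Huntington's disease. The comparisons here ask in which cell classes the 7 genes were transcribed, and whether their transcripts differed between OVT73 and control striatum.

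After filtering, 32599 nuclei were kept, 3102 to 8340 per library, with library medians of 1860 to 2562 unique molecular identifiers (UMIs) per nucleus. Of these nuclei, 29962 (91.9%) fell in clusters that could be named from marker transcripts, and 9 of 10 named classes held at least 10 nuclei in every library. Class names rest on markers alone and mean oligodendrocyte-like, astrocyte-like and so on, where OPC stands for oligodendrocyte precursor cell and MSN for medium spiny neuron. The MSN-like classes, which define striatum, held 5190 nuclei, and all 12 MSN markers were detected in the D1, D2 and eccentric MSN-like classes. In neuroblast-like nuclei those 12 markers, 1 of them at 0, summed to 82.9% of the D1 MSN-like sum, so that this name is not secure. A feature for HTT that was added to the annotation had from 25 to 322 UMIs in the OVT73 and from 1 to 6 in the control libraries. Of 33808 distinct barcodes, 149 occurred in more than 1 library. The share of oligodendrocyte-like nuclei was 39.3% to 45.2% in OVT73 and 47.1% to 54.7% in control libraries, and that of astrocyte-like nuclei was 6.5% to 8.9% and 3.1% to 5.7%, so that neither overlapped between the groups. Fewer nuclei of a class and a smaller share of a gene within the class cannot be told apart in a sum over all nuclei. The classes were therefore compared separately. Within a class, the share of a gene in the UMIs of the class was compared, not its transcripts per nucleus.

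The 6 enzymes were detected in every class but at low depth. UMIs over all nuclei numbered 6697 for HMGCS1, 8737 for FDFT1, 9780 for SQLE, 6257 for LSS, 12380 for MSMO1 and 1361 for DHCR7, against 19581 for SREBF2. MSN-like nuclei carried 63.4% of all UMIs of the data, and they supplied 78.1% of the LSS, 73.1% of the DHCR7 and 71.3% of the SQLE UMIs, but only 51.0% of those of SREBF2. Oligodendrocyte-like nuclei, with 14.6% of all UMIs, supplied 20.9% of SREBF2, 16.9% of FDFT1 and 14.7% of MSMO1 UMIs, but 5.9% of LSS and 6.9% of DHCR7 UMIs. Astrocyte-like nuclei held 3.3% of all UMIs and 7.0% of SREBF2 and 6.4% of MSMO1 UMIs. Levels are given below as CPM, the UMIs of a gene scaled to 1000000 UMIs of a class in a library. They are shares and not amounts per nucleus. Median UMIs per nucleus were 22519 in D1 MSN-like, 2680 in astrocyte-like and 1416 in microglia-like nuclei. MSMO1 had 790 UMIs in 2113 astrocyte-like nuclei and 4279 in 2591 D1 MSN-like nuclei. SREBF2 had 864 UMIs in 2783 microglia-like nuclei and 5296 in the D1 MSN-like nuclei. Gene lengths were not used, so a gene is compared only with itself. The orders of classes below cover the named classes with at least 10 nuclei in every library. They leave out the 2637 nuclei of unnamed clusters.

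HMGCS1 encodes the cytosolic synthase that condenses acetyl-CoA units on the way to mevalonate. Its level ranged from 32.1 to 54.9 CPM in PV/Th interneuron-like nuclei (median 45.1 over 7 libraries), from 25.7 to 52.8 in astrocyte-like nuclei (median 42.8) and from 28.4 to 51.1 in D1 MSN-like nuclei (median 37.7). In oligodendrocyte-like nuclei it ran from 15.8 to 29.5 CPM with a median of 20.9. OPC-like and microglia-like nuclei stood lowest, with means of 17.1 ± 5.2 and 17.1 ± 10.3 CPM (SD, n = 7 libraries). Astrocyte-like and D1 MSN-like nuclei were each above oligodendrocyte-like nuclei in all 7 libraries, while the ranges of neighbouring classes in the order overlapped throughout.

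FDFT1, squalene synthase, makes the first intermediate that is committed to sterols. Its mean level was 57.0 ± 11.1 CPM in PV/Th-like, 56.4 ± 17.3 in astrocyte-like, 48.1 ± 15.7 in neuroblast-like and 45.0 ± 9.4 in oligodendrocyte-like nuclei (SD, n = 7), and these 4 neighbours overlapped. The D1 MSN-like mean followed at 43.7 ± 8.6 CPM, and the D2 MSN-like mean was 38.7 ± 6.8. Means of 24.8 CPM were found in eccentric MSN-like, of 21.5 in OPC-like and of 19.7 in microglia-like nuclei. Oligodendrocyte-like nuclei were 2.09 times as high as OPC-like nuclei and higher in 7 of 7 libraries.

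SQLE oxidises squalene and is a rate-limiting enzyme of the pathway. D1 MSN-like nuclei had 47.4 to 73.1 CPM (median 52.3) and lay above D2 MSN-like nuclei, whose mean was 48.6 CPM, in 7 of 7 libraries. Oligodendrocyte-like nuclei had 33.8 to 43.8 CPM, with no overlap with the D1 MSN-like range above or the OPC-like range of 13.2 to 30.7 CPM below. Microglia-like nuclei were lowest at 8.3 to 19.5 CPM. The D1 MSN-like mean was 3.4 times the microglia-like mean.

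LSS closes squalene epoxide into lanosterol, and its class means spanned a 9.45-fold range. The means of PV/Th-like and D1 MSN-like nuclei were 41.0 ± 10.98 and 40.8 ± 8.4 CPM, followed by 35.02 ± 5.6 for D2 MSN-like nuclei (SD, n = 7). Astrocyte-like nuclei had 19.2 ± 5.3, oligodendrocyte-like nuclei 11.7 ± 2.0, OPC-like nuclei 8.3 ± 4.4 and microglia-like nuclei 4.3 ± 3.5 CPM. The D1 MSN-like range, 28.2 to 52.2 CPM, did not overlap that of any of these 4 glial classes. The microglia-like value rested on 17 UMIs in all.

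MSMO1 encodes the oxidase that removes methyl groups from the sterol ring. It was highest in astrocyte-like nuclei, at 80.8 to 168 CPM (median 139.7) against 41.0 to 112 (median 68.1) in D1 MSN-like and 46.7 to 97.9 (median 57.3) in oligodendrocyte-like nuclei. Astrocyte-like nuclei lay above the next named class, D1 MSN-like, in 7 of 7 libraries. Microglia-like nuclei had the lowest mean, 28.7 ± 6.5 CPM, and the astrocyte-like mean was 4.4 times as high. Oligodendrocyte-like nuclei again exceeded OPC-like nuclei in 7 of 7 libraries, by a ratio of 1.82.

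DHCR7, the reductase that finishes 1 branch of cholesterol synthesis, was the most sparsely counted of the 7 genes. PV/Th-like nuclei had a mean of 9.8 ± 3.3 CPM, followed by D1 MSN-like nuclei at 8.4 ± 2.6, eccentric MSN-like nuclei at 8.1 ± 4.9 and D2 MSN-like nuclei at 7.5 ± 2.2 (SD, n = 7). Oligodendrocyte-like nuclei had 2.9 ± 0.9 and OPC-like nuclei 2.1 ± 1.3 CPM, from 94 and 24 UMIs. The D1 MSN-like and oligodendrocyte-like ranges did not overlap, at 4.8 to 12.1 and 1.8 to 4.1 CPM. Astrocyte-like nuclei, with 34 UMIs, had 6.7 ± 6.4 CPM and could not be placed in the order.

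SREBF2, the regulator, followed another order than the 6 enzymes. Microglia-like nuclei were lowest or next to lowest for all 6 enzymes, a place that rested on 12 UMIs for DHCR7. For SREBF2 microglia-like nuclei had the highest mean, 199.8 ± 26.8 CPM, and astrocyte-like nuclei had 189.4 ± 24.6 (SD, n = 7). Neither overlapped oligodendrocyte-like nuclei, at 93.6 to 147 CPM, while they overlapped each other. D1 MSN-like nuclei had 65.3 to 92.0 CPM and OPC-like nuclei had the lowest mean, 57.5 ± 17.9 CPM. OPC-like and oligodendrocyte-like ranges did not overlap. Of 36 class pairs compared for each gene, 20 had ranges over the 7 libraries that did not overlap for SREBF2, against 13 each for SQLE and LSS, 9 for FDFT1, 7 for DHCR7 and 5 each for HMGCS1 and MSMO1. The genes differ in UMIs, from 1361 for DHCR7 to 19581 for SREBF2, and the part of this in the counts was not tested. The highest class mean was 9.45 times the lowest for LSS, 4.58 for DHCR7, 4.40 for MSMO1 and 3.48 for SREBF2. It was 3.42 times for SQLE, 2.90 for FDFT1 and 2.61 for HMGCS1. Classes came from clustering the same nuclei, so these differences are descriptions without a test, although the 7 genes and their pathway were left out of the genes used for clustering.

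**Figure D1:**
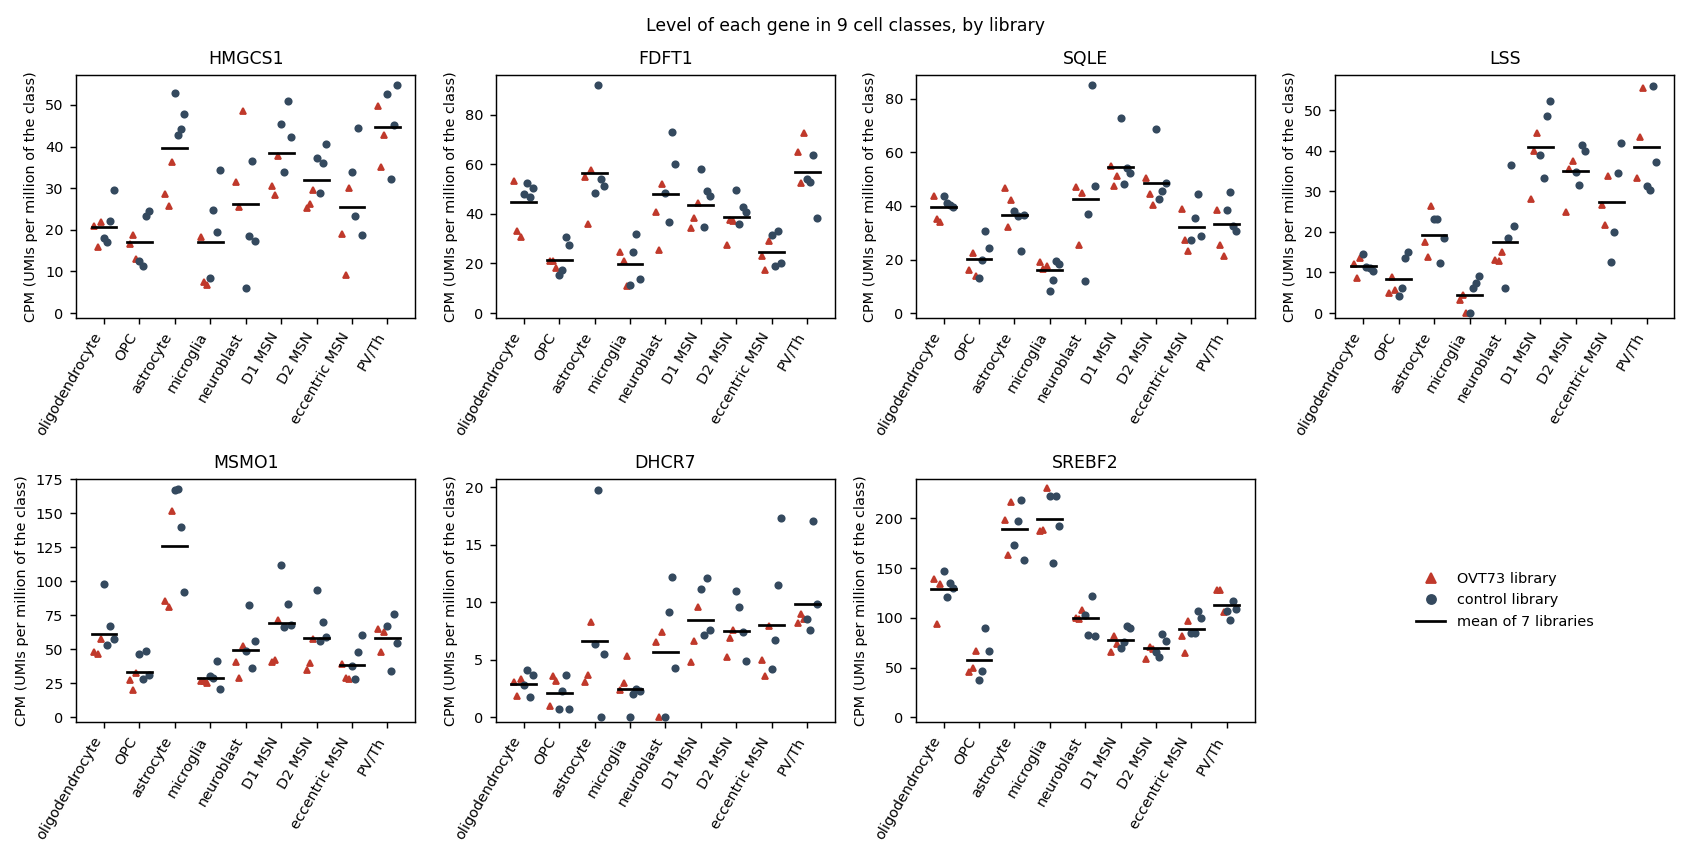
Level of each of the 7 genes (CPM of the class, linear axis from 0) in the 9 marker-named classes, with a triangle for each OVT73 library, a circle for each control library and a bar at the mean of 7 libraries. MSMO1 peaks in astrocyte-like nuclei, LSS and DHCR7 are higher in neurons than in oligodendrocyte-like nuclei, and SREBF2 is highest in microglia-like and astrocyte-like nuclei.

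MSN markers were also counted in glia. The 12 MSN markers summed to 6567 CPM in D1 MSN-like nuclei and to 358 in microglia-like, 516 in oligodendrocyte-like, 611 in OPC-like and 1754 in astrocyte-like nuclei. As shares of the D1 MSN-like sum these are 5.45%, 7.85%, 9.30% and 26.7%, in the same order. Their part in the levels of the 7 genes in glia was not tested. Means in microglia-like and D1 MSN-like nuclei were 17.1 and 38.5 CPM for HMGCS1, 19.7 and 43.7 for FDFT1, and 15.9 and 54.5 for SQLE. They were 4.3 (from 17 UMIs) and 40.8 for LSS, 28.7 and 69.2 for MSMO1, and 2.5 and 8.4 for DHCR7. For SREBF2 they were 199.8 and 78.2 CPM.

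The likeness of the 7 profiles was described across the 10 named classes. On log2(CPM + 1) of the pooled class sums, the Pearson correlation of each gene with the mean of the other 6 was 0.91 for HMGCS1, 0.83 for FDFT1, 0.78 for SQLE, 0.76 for MSMO1, 0.71 for DHCR7 and 0.65 for LSS, but 0.02 for SREBF2. Of single pairs, LSS with DHCR7 had the highest correlation, 0.92, followed by FDFT1 with MSMO1 at 0.87. Other pairs of enzymes went down to 0.47 for FDFT1 with DHCR7, 0.45 for LSS with MSMO1 and 0.35 for MSMO1 with DHCR7. SREBF2 ran from -0.33 with LSS to 0.35 with FDFT1 and 0.43 with MSMO1, within the range of the enzyme pairs at its upper end. Among 9110 other genes that reached 20 CPM in a class, CORO2B (r = 0.93), TBCD (0.87), TCAIM (0.86), GALNT18 (0.86) and PTMS (0.855) were the 5 most like the mean of the 7 genes. The 3 best counted other enzymes of the pathway had r = -0.02 (HSD17B7), 0.04 (IDI1) and 0.63 (CYP51A1) with that mean. A correlation near 0 was thus not particular to SREBF2. The 10 points are classes of the same 7 libraries that differ in depth, and the correlations are a description.

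Oligodendrocyte-like nuclei formed 4 clusters. SQLE was 48.9 ± 6.1 CPM in cluster 1, led by OPALIN (SD, n = 7). In cluster 7, led by ENPP6 and VEPH1, it was 31.9 ± 7.9 and lower in 7 of 7 libraries. Cluster 7 also had MOBP among its 10 leading genes and all 13 oligodendrocyte markers raised, and its stage was not tested. FDFT1 was lower in cluster 6, led by CLMN and PLLP among genes with a symbol, at 34.6 ± 5.7 CPM, than in cluster 7, at 51.7 ± 16.0, in 7 of 7 libraries. MSMO1 was 1.21 times as high in cluster 2, led by CCDC152 and GHR, as in cluster 6, again in 7 of 7 libraries. SREBF2 was 153 ± 33.8 CPM in cluster 6 and 106.6 ± 10.0 in cluster 7. In all of these the ranges of the clusters overlapped. Against the single OPC-like cluster, the means of SQLE, FDFT1, MSMO1 and SREBF2 were higher in each of the 4 oligodendrocyte-like clusters.

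Astrocyte-like nuclei formed 2 clusters. Cluster 10, led by DTHD1 and COL22A1 with GFAP among its 10 leading genes, had 156 ± 52.1 CPM of MSMO1 and 48.9 ± 16.9 of HMGCS1 (SD, n = 7). Cluster 11, led by SLC1A2 and IRAG1, had 104 ± 37.3 and 32.2 ± 8.4 CPM. Among nuclei that were given no name, a cluster of 485 nuclei had all 10 OPC markers raised, and 65.2% of its nuclei were removed as doublets. The 169 nuclei kept had the highest pooled HMGCS1 level of all clusters of 50 nuclei or more, 126 CPM, from 147 UMIs. By library it ran from 30.9 to 542 CPM, with as few as 4 nuclei in a library, and the cluster was not placed in a class.

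**Figure D2:**
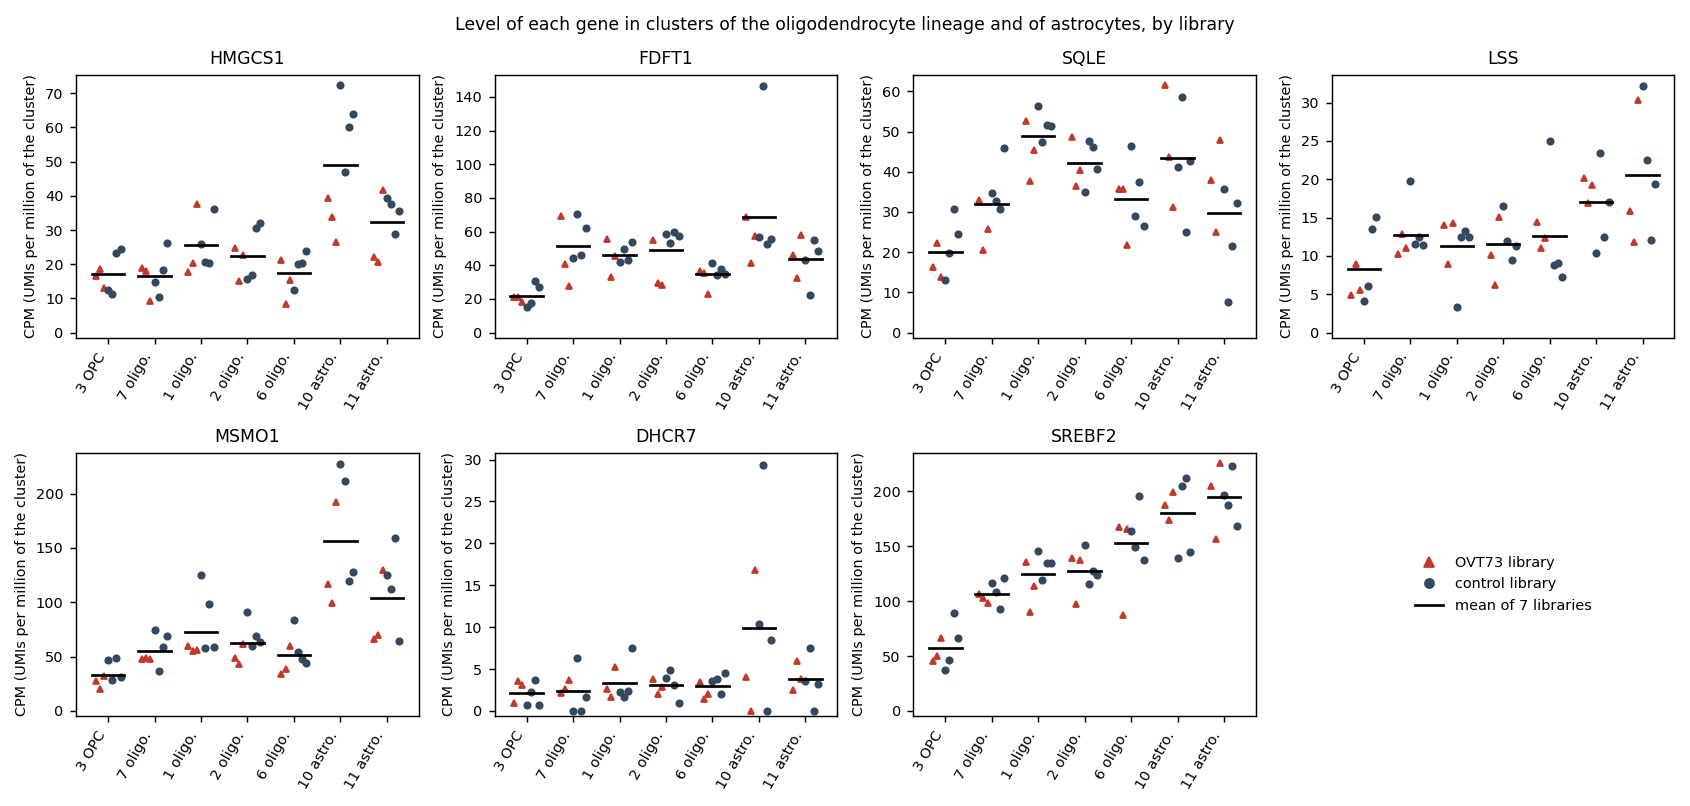
Level of each gene (CPM of the cluster, linear axis from 0) in the OPC-like cluster 3, the oligodendrocyte-like clusters 7, 1, 2 and 6 and the astrocyte-like clusters 10 and 11, with symbols as in the plot by class. The means of the 4 oligodendrocyte-like clusters lie above that of the OPC-like cluster for FDFT1, SQLE, MSMO1 and SREBF2. Some library ranges overlap, as for SQLE in cluster 7 (from 20.5 CPM) and in the OPC-like cluster (up to 30.7 CPM). HMGCS1 in cluster 10 shows the OVT73 libraries below the control libraries.

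For OVT73 against control, UMIs were summed per library and class and tested with edgeR on all genes of a class. Of 63 pairs of a gene and a class, 52 had enough UMIs to be tested, and 41 of these had a log2 fold change below 0, beside 51.2% of all genes in PV/Th-like, 51.6% in neuroblast-like, 51.7% in eccentric MSN-like, 52.4% in microglia-like, 52.6% in OPC-like, 53.2% in oligodendrocyte-like, 53.3% in astrocyte-like, and 54.4% and 54.7% in the D1 and D2 classes. The pairs come from the same libraries and are not independent, so the count below 0 was not tested. None of the 52 passed an adjusted p of 0.05 by edgeR, the smallest adjusted p being 0.75. Without adjustment, 3 of the 52 had a p under 0.05 by edgeR and 3 by DESeq2, which also called none. As background, edgeR called 0% of all genes in 8 classes and in the sum over all nuclei, and 0.0111% (1 gene, CPT2, named after its value was seen) in OPC-like nuclei. The same edgeR fits gave 156 to 611 genes per class with an unadjusted p under 0.05. These were 379 of 8332 genes in astrocyte-like, 490 of 12377 in D1 MSN-like and 549 of 11940 in D2 MSN-like nuclei. By share they ran from 156 of 4279 genes in neuroblast-like to 515 of 7332 in eccentric MSN-like nuclei. DESeq2 gave 253 of 8331 in astrocyte-like, 522 of 12374 in D1 MSN-like and 522 of 11938 in D2 MSN-like nuclei. DESeq2 called 0.0953% of genes in the sum over all nuclei, 0% in astrocyte-like and neuroblast-like, 0.0136% in eccentric MSN-like, 0.015% in microglia-like, 0.0242% in D1 MSN-like, 0.0419% in D2 MSN-like, 0.0476% in oligodendrocyte-like, 0.0784% in PV/Th-like and 0.0997% in OPC-like nuclei. On simulated sums with 200 changed genes, edgeR recovered 49.5% of changes of 1.0 on the log2 scale and 0.5% of changes of 0.5 in oligodendrocyte-like nuclei (10514 genes), and 53.5% and 0% in D1 MSN-like nuclei (12377 genes). The 200 genes were drawn at random from all tested genes and all changed by the same size. The shares recovered therefore do not give the chance of a call for the 52 pairs. Sizes between 0.5 and 1.0 and the other classes were not simulated. Values of OVT73 and control libraries below are TMM-normalized CPM, which put the libraries of a class on a common scale. Values within clusters, sums of markers, levels over all libraries and the comparison between classes use CPM without this scaling.

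HMGCS1 in astrocyte-like nuclei was the only one of the 52 pairs (1.92%) in which the groups did not overlap, against 5.35% of all genes tested in that class (2.34% with OVT73 lower). Over the other classes this share ran from 5.27% to 7.6%, with 5.28% in microglia-like, 5.33% in neuroblast-like, 5.37% in PV/Th-like and 7.58% in eccentric MSN-like nuclei. OVT73 libraries 1, 2 and 3 stood at 28.5, 26.6 and 36.5 normalized CPM, and control libraries 1, 2, 3 and 4 at 52.1, 42.8, 43.4 and 47.4. Every OVT73 library was below every control library. The means were 30.6 ± 5.25 and 46.4 ± 4.27 (SD, n = 3 and 4), the log2 fold change -0.61 with SE 0.22, and the two-sided exact permutation p was 0.0286, the smallest this design allows. The edgeR adjusted p was 1.00. The class held 247 HMGCS1 UMIs, from 13 to 75 per library. Cluster 10 holds part of the same nuclei and 125 of these UMIs, and was compared after the class value was seen. HMGCS1 there was 33.2 ± 6.5 CPM in OVT73 and 60.8 ± 10.5 in control libraries, without overlap (exact permutation p = 0.0571). Within cluster 11 it was 28.1 ± 11.7 and 35.3 ± 4.6 CPM, with overlap (exact permutation p = 0.286). Cluster 10 held 54.1 ± 2.3% of astrocyte-like nuclei in OVT73 and 60.8 ± 9.0% in control libraries, and the part of this share in the class difference was not tested. At clustering resolution 2.0 the log2 fold change was -0.40. At that resolution a cluster led by DTHD1 and GPC3, with 529 nuclei kept and 4 of 11 astrocyte markers raised, was left unnamed. The 10 OPC markers, none of them at 0, summed to 3205.5 to 3314 CPM in OVT73 and 3543 to 3863 in control astrocyte-like nuclei, without overlap, and their part in this value was not tested.

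MSMO1 had the largest difference over all nuclei and a log2 fold change below 0 in 8 of 9 classes. In D1 MSN-like nuclei OVT73 libraries 1, 2 and 3 had 43.1, 45.6 and 71.5 normalized CPM, and control libraries 1, 2, 3 and 4 had 108, 66.3, 76.2 and 68.3. OVT73 libraries 1 and 2 were below all controls, while OVT73 library 3 was above 2 of them. The log2 fold change was -0.58 (SE 0.22, edgeR adjusted p 0.94) and the exact permutation p was 0.171. D2 MSN-like nuclei gave 36.03, 43.4 and 57.8 normalized CPM in OVT73 and 90.1, 55.5, 65.0 and 58.7 in control libraries, with a log2 fold change of -0.57 (SE 0.20, edgeR adjusted p 0.91). Here OVT73 library 3 lay above control library 2 alone. The 11 astrocyte markers were lower in OVT73 without overlap in the D1 class (360 to 404 against 405 to 477 CPM, 1 marker at 0) and in the D2 class (294 to 334 against 356 to 388 CPM). The 7 mural and fibroblast markers, none at 0, were also lower without overlap, at 9.95 to 11.96 against 16.2 to 24.8 CPM in the D1 class and 10.6 to 13.03 against 18.7 to 20.5 in the D2 class. The part of both lists was not tested.

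In oligodendrocyte-like nuclei MSMO1 was 48.6, 50.2 and 57.3 normalized CPM in OVT73 and 97.0, 54.3, 62.3 and 56.1 in control libraries. Control library 1 was the highest of all libraries, and the log2 fold change of -0.37 (SE 0.20, edgeR adjusted p 0.88) became -0.14 without it. The 13 oligodendrocyte markers were lower in OVT73 in these nuclei, at 9067 to 9731 against 9866 to 12199 CPM, and their part in the values of this class was not tested. Without control library 1, MSMO1 in D1 and D2 MSN-like nuclei became -0.41 and -0.39, and without OVT73 library 3 they were -0.84 and -0.75. In astrocyte-like nuclei the values were 85.5, 83.7 and 152 in OVT73 and 165, 168, 138 and 91.1 in control libraries, a log2 fold change of -0.38 (SE 0.26). OVT73 library 3 was high and control library 4 low, so that the groups overlapped widely. Without OVT73 library 3 the astrocyte value was -0.71, and with the 5 libraries of 2 sheep alone it was -0.11.

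HMGCS1 in D1 MSN-like nuclei was 32.2, 30.6 and 37.6 normalized CPM in OVT73 and 43.8, 33.9, 46.8 and 42.3 in control libraries, and control library 2 fell within the OVT73 range. Its log2 fold change was -0.32 (SE 0.15, edgeR adjusted p 0.94, exact permutation p 0.0857), and in D2 MSN-like nuclei it was -0.31. In eccentric MSN-like nuclei it was -0.53 (SE 0.37, 163 UMIs). In oligodendrocyte-like nuclei it was -0.08, with a 95% interval of -0.62 to 0.46 that is not adjusted for the number of genes.

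FDFT1 in oligodendrocyte-like nuclei was 54.1, 35.5 and 30.4 normalized CPM in the OVT73 samples 1, 2 and 3, while the controls had 47.5, 53.6, 43.6 and 49.5. OVT73 libraries 2 and 3 were below all controls and OVT73 library 1 above all of them. The log2 fold change was -0.26 (SE 0.19, edgeR adjusted p 0.88) and moved to -0.55 without OVT73 library 1 and to -0.11 without OVT73 library 3. In neuroblast-like nuclei it was -0.47 (SE 0.37, 85 UMIs) and in PV/Th-like nuclei 0.33 (SE 0.21).

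SQLE in oligodendrocyte-like nuclei was 44.1, 37.8 and 33.7 normalized CPM in OVT73 and 43.3, 41.7, 37.7 and 38.8 in control libraries, a log2 fold change of -0.06 with an interval of -0.41 to 0.30. The groups overlapped. In astrocyte-like nuclei its log2 fold change was 0.35 (SE 0.25, edgeR adjusted p 1.00), and in D1 MSN-like nuclei -0.05.

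LSS had log2 fold changes between -0.46 and 0.21 over the 7 classes in which it was tested, and 3 of them were below 0, the lowest in OPC-like nuclei (SE 0.46, 90 UMIs). In D1 MSN-like nuclei, where it had 2702 UMIs, it was 29.7, 42.9 and 44.2 normalized CPM in OVT73 and 37.6, 33.3, 44.6 and 52.3 in control libraries. The groups overlapped, at -0.11 with an interval of -0.61 to 0.38. DHCR7 could be tested in 3 classes, with log2 fold changes of -0.35 and -0.23 in the D1 and D2 classes and of -0.10 in oligodendrocyte-like nuclei, and intervals that each contained 0.

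SREBF2, the gene with the most UMIs, had a narrow spread of differences. Its log2 fold changes ran from -0.15 to 0.22 over 9 classes, 5 of them below 0. In oligodendrocyte-like nuclei it was 141, 101 and 133 normalized CPM in OVT73 and 146, 124, 126 and 127 in control libraries, and in microglia-like nuclei 185, 196 and 229 against 217, 155, 220.2 and 196. In both classes the ranges overlapped. The intervals were -0.40 to 0.27 in oligodendrocyte-like and -0.40 to 0.30 in D1 MSN-like nuclei.

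**Figure D3:**
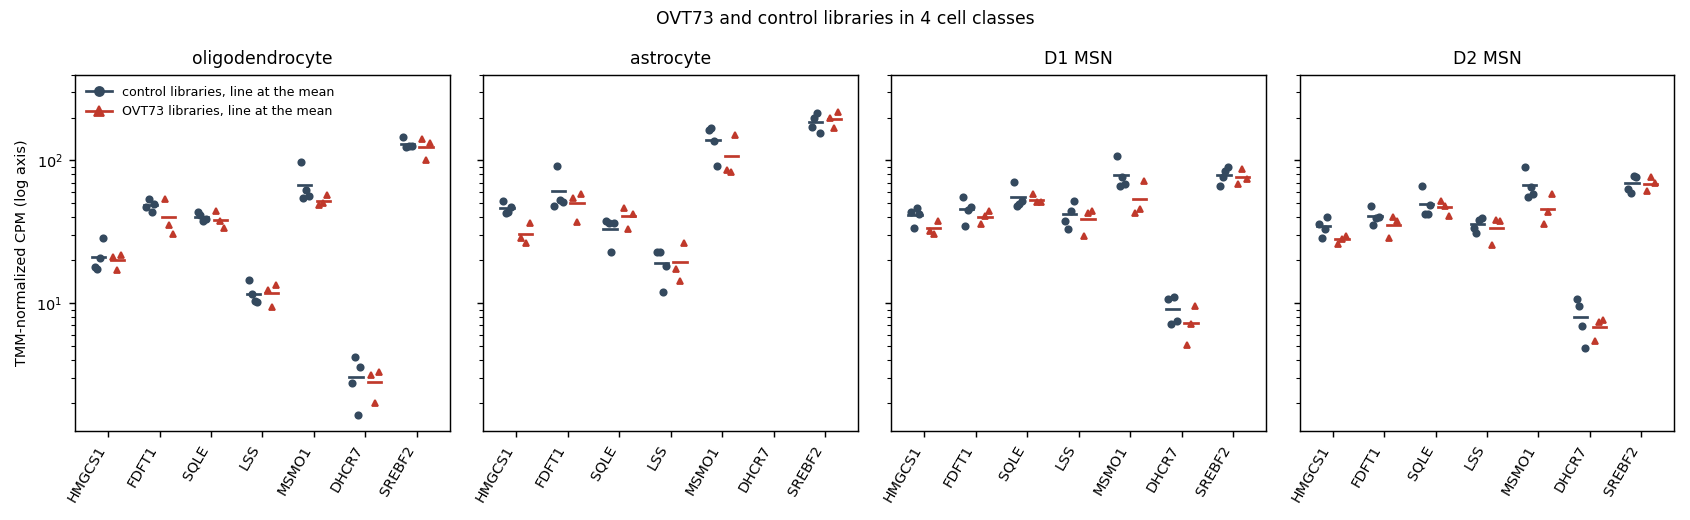
TMM-normalized CPM (log axis) of the 7 genes in oligodendrocyte-like, astrocyte-like, D1 MSN-like and D2 MSN-like nuclei, with a circle for each control library, a triangle for each OVT73 library and a line at each group's mean. DHCR7 had too few UMIs in astrocyte-like nuclei and is not drawn there. HMGCS1 in astrocyte-like nuclei is the only pair of groups without overlap.

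Summed over all nuclei, 6 of the 7 genes had a log2 fold change below 0 (55.9% of all genes did), and 1 of the 7 genes did not overlap between the groups, against 6.33% of 16061 genes. FDFT1 stood at 38.4, 39.4 and 38.5 normalized CPM in the OVT73 samples, while the controls had 49.0, 40.9, 42.4 and 43.2. The distance between the highest OVT73 and the lowest control library was small beside the spread of the controls. The log2 fold change was -0.18 (SE 0.11, edgeR adjusted p 0.83) and the exact permutation p was 0.0571. MSMO1 was -0.47 (SE 0.19), with 44.7, 45.9 and 62.9 against 95.6, 58.9, 67.8 and 60.2 normalized CPM, and -0.28 without control library 1. The other five lay between -0.23 and 0.04. Without adjustment, 1 of the 7 genes had a p under 0.05 in this sum by edgeR and 1 by DESeq2. Of all genes, 865 of 16061 did by edgeR and 916 by DESeq2. The mix of classes moves with the group in this sum, as given above for oligodendrocyte-like and astrocyte-like nuclei, and its part in these values was not tested.

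**Figure D4:**
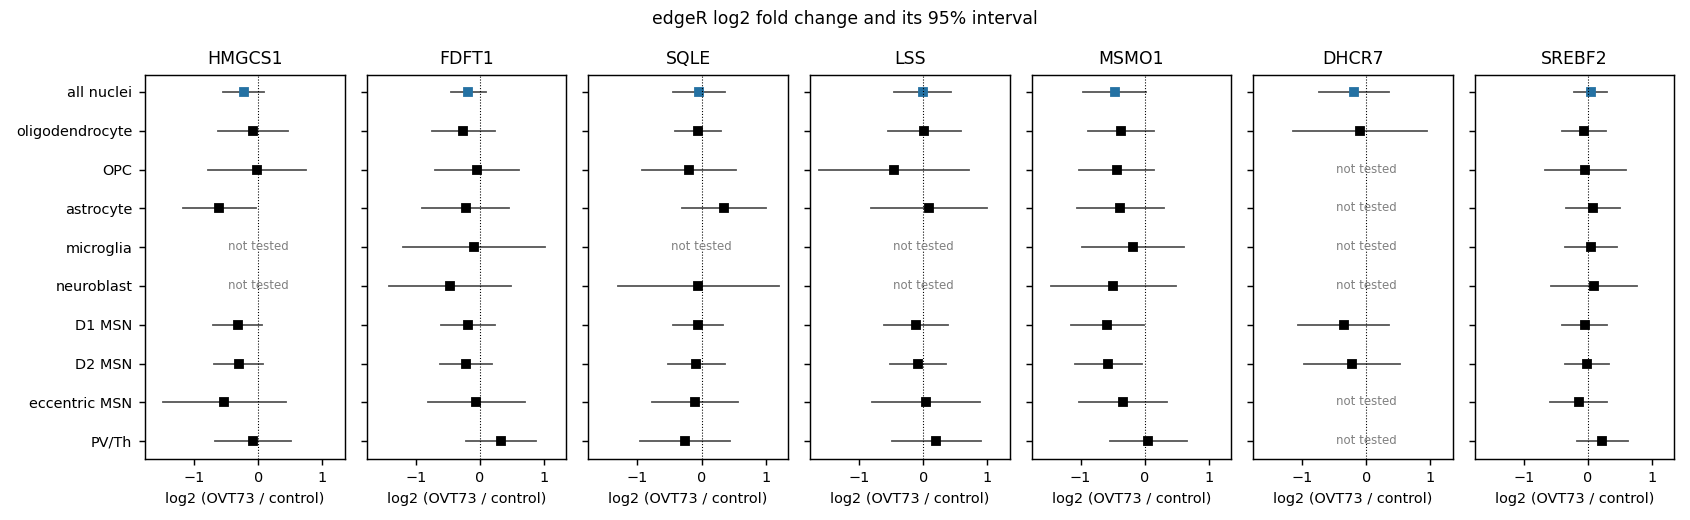
edgeR log2 fold change of OVT73 over control (squares) with its 95% interval (lines, from the SE and 5 residual degrees of freedom, not adjusted for the number of genes) for each gene in the sum over all nuclei and in 9 classes. Intervals of MSMO1 in D1 and D2 MSN-like nuclei and of HMGCS1 in astrocyte-like nuclei end just below 0, and no gene passed the adjusted threshold. The edgeR test does not use these 5 degrees of freedom. Over all nuclei each interval contains 0, although 1 gene had an unadjusted edgeR p under 0.05.

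Whether the difference between OVT73 and control libraries was unequal between classes was tested within libraries, on log2(CPM + 1), for the 7 genes and 2 pairs of classes. None of the 14 comparisons passed an adjusted p of 0.05, the smallest being 0.40 by the exact permutation test with Benjamini-Hochberg adjustment. With 0.0286 as the smallest p of a single comparison, this adjustment over 14 left little room for a call, so the lack of one says little. HMGCS1 differed between the groups by -0.13 in oligodendrocyte-like and by -0.63 in astrocyte-like nuclei, a difference of 0.50 (exact permutation p 0.0857). SQLE differed by -0.14 and 0.27, a difference of -0.41 with the same p. MSMO1 differed by -0.40 in oligodendrocyte-like and by -0.66 in all MSN-like nuclei (exact permutation p 0.0571).

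The pathway around the 7 genes was read from 4 lists. All 16 other enzymes of cholesterol synthesis were found by symbol, as were 7 of 10 genes of sterol sensing, 11 of 12 of uptake and intracellular transport, and 7 of 8 of export, storage and turnover. No gene of any list was called by edgeR in any class, in either direction, beside the background of 0% or 0.0111% above. Of the other enzymes, 13 of 16 had a log2 fold change below 0 in the D1 class (54.4% of all genes did), 15 of 16 in the D2 class (54.7%) and 11 of 14 tested in oligodendrocyte-like nuclei (53.2%). Their median log2 fold changes were -0.27, -0.22 and -0.19, while the medians of all genes were -0.03, -0.03 and -0.02. In astrocyte-like nuclei 6 of 8 tested were below 0 (53.3% of all genes), with a median of -0.10 beside -0.02. In OPC-like nuclei 5 of 9 were below 0 (52.6% of all genes), and their median of -0.0084 was above the -0.017 of all genes. The counts were 4 of 6 in eccentric MSN-like (median -0.34), 4 of 5 in microglia-like (median -0.058), 5 of 7 in PV/Th-like (median -0.068) and 1 of 1 in neuroblast-like nuclei. In the sum over all nuclei 15 of 16 were below 0 (55.9% of all genes), with a median of -0.21 beside -0.03. There 4 of 16 did not overlap, each lower in OVT73, beside 6.33% of all genes in either direction.

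The 3 best counted of these enzymes kept to different classes. HSD17B7 was highest in oligodendrocyte-like nuclei (67.7 ± 10.4 CPM, SD, n = 7) and lowest in D2 MSN-like nuclei (12.3 ± 2.9). IDI1, the isomerase that follows mevalonate, was highest in neuroblast-like nuclei (69.4 ± 18.5) and in astrocyte-like nuclei (66.7 ± 18.7), and CYP51A1, which demethylates lanosterol, in PV/Th-like nuclei (53.6 ± 13.7). CYP51A1 in oligodendrocyte-like nuclei was 17.1 ± 1.5 normalized CPM in OVT73 and 22.2 ± 1.9 in control libraries, without overlap (6.57% of all genes there; exact permutation p 0.0286; edgeR adjusted p 0.88). It did not overlap in D2 MSN-like nuclei either (5.94% of all genes), at 18.0 ± 1.1 and 25.7 ± 2.8. IDI1 in astrocyte-like nuclei did not overlap, at 52.8 ± 1.7 and 76.8 ± 17.5 (5.35% of all genes there, 2.34% with OVT73 lower; exact permutation p 0.0571; edgeR adjusted p 1.00).

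In D1 MSN-like nuclei the groups did not overlap for 3 of the 16 other enzymes, ACAT2, MVD and NSDHL, and for INSIG1 and NR1H3 of 6 tested genes of sterol sensing, each lower in OVT73, where 5.27% of all genes did not overlap (2.25% with OVT73 lower). These genes were named after their values were seen. INSIG1, whose protein holds the SREBP complex in the endoplasmic reticulum, was 1.41 ± 0.49 normalized CPM in OVT73 and 3.49 ± 0.57 in control libraries, a log2 fold change of -1.27 (SE 0.34, edgeR adjusted p 0.94, 161 UMIs). In D2 MSN-like nuclei INSIG1 was 2.10 ± 0.67 and 2.19 ± 0.54. MVD, the decarboxylase of the mevalonate arm, was 1.43 ± 0.26 and 2.85 ± 0.16 in D1 MSN-like nuclei.

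MBTPS2, SCAP and MBTPS1, the best counted genes of sterol sensing, which cleave or escort SREBP, had log2 fold changes between -0.05 and 0.22 in oligodendrocyte-like, and between 0.03 and 0.13 in D1 MSN-like nuclei. SCAP was highest in D2 MSN-like nuclei (120.3 ± 7.6 CPM) and MBTPS2 in astrocyte-like nuclei (157 ± 28.5). Over the 7 genes tested in oligodendrocyte-like nuclei the log2 fold changes ran from -0.46 to 0.22 with a median of -0.05, and over the 5 tested in OPC-like nuclei from -0.56 to 0.06. In the sum over all nuclei they ran from -0.51 to 0.13, and INSIG1 and NR1H2, named after their values were seen, did not overlap, beside 6.33% of all genes in either direction. INSIG1 was 6.42 ± 1.39 normalized CPM in OVT73 and 9.07 ± 1.62 in control libraries (exact permutation p 0.114), and NR1H2 was 1.36 ± 0.11 and 1.94 ± 0.47 (exact permutation p 0.0571), with an edgeR adjusted p of 0.83 for both.

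For uptake and transport, OSBPL8 was highest in D2 MSN-like nuclei (707 ± 78.5 CPM), GRAMD1B in PV/Th-like nuclei (328 ± 61.7) and LRP1 in OPC-like nuclei (160.05 ± 31.0). GRAMD1B and LRP1 were lowest in oligodendrocyte-like nuclei, at 5.8 ± 2.8 and 4.9 ± 1.5 CPM. OSBPL8 in D1 MSN-like nuclei was 763 ± 45.7 normalized CPM in OVT73 and 648 ± 59.7 in control libraries, without overlap (3.02% of all genes with OVT73 higher) and with a log2 fold change of 0.24 (edgeR adjusted p 0.94). Lower in OVT73 without overlap were 1 of 10 tested genes of this list in oligodendrocyte-like nuclei (6.57% of all genes in either direction) and 1 of 8 in eccentric MSN-like nuclei (7.58%).

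For export and turnover, APOE, the lipoprotein that carries cholesterol between brain cells, was highest in astrocyte-like nuclei (1442 ± 168 CPM) and microglia-like nuclei (889.8 ± 298) and lowest in D1 MSN-like nuclei (6.7 ± 1.6). ABCA1, which loads it, was highest in the same pair of classes, at 428 ± 41.6 and 329 ± 106 CPM. CYP46A1, the hydroxylase that clears cholesterol from neurons, was 148 ± 56.1 in astrocyte-like and 94.4 ± 13.5 in D2 MSN-like nuclei. APOE in oligodendrocyte-like nuclei was 85.8 ± 10.3 normalized CPM in OVT73 and 59.9 ± 11.01 in control libraries, without overlap (3.5% of all genes there with OVT73 higher), its log2 fold change being 0.52 (SE 0.16, edgeR adjusted p 0.81, exact permutation p 0.0286). The 11 astrocyte markers summed to 93.1 to 145 CPM in the OVT73 and 81.9 to 161 in the control libraries of oligodendrocyte-like nuclei, and the 12 microglia markers to 43.6 to 50.1 and 39.9 to 77.9 CPM, both with overlap. The part of transcripts from either class in the APOE difference was not tested. In astrocyte-like nuclei 1 of 5 tested genes of this list was lower in OVT73 without overlap (5.35% of all genes in either direction). In D2 MSN-like nuclei 1 of 5 was higher without overlap (5.94%).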

How the data were processed

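Droplet libraries of single nuclei from striatum were analysed from the deposited count matrices. Per the labels and the submitters' processing notes, the authors made these UMI counts with Cell Ranger 7.0.0 and STAR 2.7.2a on the sheep genome Oar_rambouillet_v1.0 with an Ensembl annotation. The setting for intronic reads is not given in words in the sources used here. The study's mapping summary has a share of reads mapped to the transcriptome far above the exonic share, as counting of intronic reads would give.

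Nuclei with 200 to 7500 genes and at most 5% mitochondrial UMIs were kept, and the 4% with the highest scrublet scores per library were removed as doublets (1358 nuclei), because the automatic threshold marked 129 of 33957, 123 of them in OVT73 library 3. Nuclei were clustered with a Harmony-type correction and Louvain (scanpy 1.11.5, igraph 0.11.9, resolution 1.0) without the 7 genes and their pathway lists. A cluster was named where at least 3 markers, and no fewer than 50% of a class's list, exceeded a log2 fold of 1.0. It also needed at least 50 nuclei, at most 50% of them scored as doublets, and only 1 such list. MSN and interneuron clusters also needed 1 matching subtype list. Where no broad list reached 50%, a subtype could be named if at least 3 markers of its broad list were raised. Further checks used the 10 leading genes. The scoring was set after marker profiles were seen and before any of the 7 genes was compared. UMIs were summed per library and class and tested with edgeR 4.0.16 (TMM, filterByExpr, quasi-likelihood, 3 against 4 libraries, Benjamini-Hochberg) over all genes of a class, with DESeq2 1.42.0 as an alternative. edgeR was tested on simulated data with known changes. Single values were tested by exact two-sided permutation over 35 splits, whose smallest p is 0.0286. Totals were 20887378 to 70473426 UMIs per library. Members, lists and tests were chosen with earlier results of these data known. Named in the text are the 7 genes, the 3 best counted genes of each pathway list and the 5 genes most like the 7 across classes, and other genes are said to be named after their values were seen. Barcode-to-sheep assignments were not used here. The values of 1 gene of the pathway lists are not reported here.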

Additional observations from a re-analysis of the deposited data

Results flagged for a closer look

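In 59 sets of normalized CPM of the 4 control libraries, 3 held a library far from the other three, by Dixon's criterion at the 95% level, which chance meets in about 1 of 20 sets. SQLE in astrocyte-like nuclei was 22.9 in control library 3, while the other three had 36.2 to 37.5. FDFT1 in astrocyte-like nuclei was 92.2 in control library 2, against 47.9 to 53.1 in the others. SREBF2 in oligodendrocyte-like nuclei was 146 in control library 1, against 124 to 127 in the others.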

How the results depend on the processing

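None of the 7 genes was called in any class, or over all nuclei, under any of the alternatives run, and the smallest adjusted p of one of them was 0.378. Of 898 recomputed fold changes of these genes, 25 moved by more than the standard error and 88 changed sign, the largest of which had a size of 0.23 on the log2 scale. The moves were unevenly spread over the alternatives. With the 5 libraries of 2 sheep alone, 13 of 59 fold changes moved and 11 changed sign. Leaving out 1 library moved 8 of 407 and changed the sign of 58. Genes called over the classes by edgeR numbered 1, and 2 without scaling factors, 2 with doublets kept, 168 without a filter on low counts, 12 with the 5 libraries of 2 sheep and 30 with DESeq2. Leaving out 1 library gave 0 to 3. Over all nuclei edgeR called 0 genes and DESeq2 15. The causes were not tested. The 14 differences between classes could hardly pass after adjustment in this design, and their 0 calls under the alternatives say nothing about stability. With doublets kept, or with means over nuclei, 5 of 7 genes had the same highest class, since HMGCS1 and FDFT1 exchanged PV/Th-like and astrocyte-like nuclei. Of 273 recomputed levels, 2 moved by more than the spread between libraries. Without scaling factors the median log2 fold change of all genes over all nuclei was -0.15. No paired analysis was possible because the labels carry no replicate numbers shared between the groups.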
